A study of Mus musculus with 8 samples.

Results

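Cytoplasmic ribosomal protein genes encode the proteins of the ribosomes that translate nuclear messenger RNAs. Here they were examined in neonatal mouse hearts with and without connexin43, the gap junction protein encoded by Gja1. The members were the probes whose single annotated symbol was that of a ribosomal protein of the small or the large subunit, with kinases and symbols of pseudogenes left out. The rule found 115 of 28704 probes, for 61 genes, 23 of the small and 38 of the large subunit. All 61 genes were measured in 3 or more pools of either genotype, 59 of them on all 8 arrays, as were 11804 features in the whole data. Of the 115 probes 6 had too many missing values and were not used. Another 36 probes carried a ribosomal protein symbol together with a further symbol and were not counted as members. RefSeq lists 1 member, Rps4l, as a transcribed pseudogene.

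Total RNA came from connexin43 null neonatal C57BL hearts and from wildtype neonatal C57BL hearts, with 4 pools of 3 hearts per genotype. The labels state neither the day after birth nor the sex of the pups, and say of the deletion only that the hearts are null. Each pool was labelled with Cy3 and hybridised with the same Cy5-labelled reference, a mixture of adult organs of both sexes that contained heart and gonads. Dyes were the same on all arrays. A value below is the log2 of heart signal divided by reference signal after the array median was subtracted, so that 0 is the median of the array and not equality with the reference. The labels leave the direction unstated, and it was read from heart muscle genes, whose median lay above that of liver and lung genes on all 8 arrays. Of the 4 liver genes 1 went the other way, at 2.07 to 2.59, above the heart muscle genes on each array.

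A ribosome has a small subunit, which reads the messenger RNA, and a large subunit, which joins the amino acids. Most ribosomal proteins are present once in each ribosome, and cells make these proteins in matched amounts. Their messenger RNAs are among the most abundant in growing tissue and start with a tract of C and U letters, the terminal oligopyrimidine (TOP) tract, through which the growth kinase mTOR controls their translation. Neonatal heart muscle grows fast and depends on this supply. Many ribosomal protein genes have processed pseudogene copies of nearly the same sequence, and a cDNA probe cannot tell their transcripts apart, so a value can hold signal of such copies.

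Start regions of 9 members named below are shown, in RefSeq's GRCm38.p6 sequence. Each runs from 60 bases before to 15 bases after the annotated start of transcription. Capitals mark the longest run of at least 5 C or T letters that begins within 10 bases of the start. Such a run need not be a TOP tract, with which the messenger RNA starts. In Rps6 and Rpl28 the run spans the annotated start, and in Rps12, Rpsa and Rpl13a it begins after the first base. In Rpl27, Rpl39l and Rpl10l it ends before the annotated start and so lies outside the annotated transcript. In Rps12 and Rpl13a the run reaches the end of the window shown. Rpl41 has no such run, and neither have Rpl5 and Rps15, whose regions are not shown. Rpl10l and Rpl39l are the members with the lowest levels.
Rps12, chr10:23787195-23787269, minus strand: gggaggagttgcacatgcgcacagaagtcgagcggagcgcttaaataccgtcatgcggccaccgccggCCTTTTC
Rpsa, chr9:120127706-120127780, plus strand: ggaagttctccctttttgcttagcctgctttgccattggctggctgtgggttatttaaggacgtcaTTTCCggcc
Rps6, chr4:86857353-86857427, minus strand: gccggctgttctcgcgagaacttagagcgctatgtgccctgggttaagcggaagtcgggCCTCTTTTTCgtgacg
Rpl28, chr7:4792905-4792979, plus strand: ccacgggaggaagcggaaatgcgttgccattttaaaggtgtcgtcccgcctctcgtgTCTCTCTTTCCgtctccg
Rpl27, chr11:101442185-101442259, plus strand: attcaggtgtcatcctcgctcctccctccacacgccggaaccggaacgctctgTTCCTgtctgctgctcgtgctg
Rpl41, chr10:128549154-128549228, minus strand: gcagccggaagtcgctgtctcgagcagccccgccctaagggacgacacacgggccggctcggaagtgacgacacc
Rpl13a, chr7:45128731-45128805, minus strand: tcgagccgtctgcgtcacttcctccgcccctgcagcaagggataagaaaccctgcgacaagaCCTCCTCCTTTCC
Rpl39l, chr16:10170168-10170242, plus strand: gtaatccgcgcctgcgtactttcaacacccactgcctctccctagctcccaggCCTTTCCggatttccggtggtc
Rpl10l, chr12:66284387-66284461, minus strand: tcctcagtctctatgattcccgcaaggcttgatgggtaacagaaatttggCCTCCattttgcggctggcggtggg

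RefSeq start regions were found for 47 of the 61 members, and every listed start of a gene was searched. A C at the first base followed by 4 bases that are C or T was present in 13 of 47 members (27.7%), 6 of 19 of the small and 7 of 28 of the large subunit, against 3.01% of all 27025 genes in the table. The looser run marked by capitals was present in 32 of 47 members (68.1%), against 40.7% of all genes. The letters CCGGAAG, the core bound by ETS factors such as GABP, were searched on both strands over 250 bases before and 50 after the start. They were present in 20 of 47 members (42.6%), against 9.93% of all genes. The letters TATAAA were present in 2 of 47 members (4.26%), against 15.7% of all genes. These matches are descriptions of the sequence and no evidence of binding.

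Facts of the arrays bear on what follows. A value was present for 62.3% to 70.4% of all spots on the null arrays and for 45.2% to 83.4% on the wildtype arrays, where wildtype replicate 1 had the fewest. Of the 115 ribosomal protein probes, 107 to 109 had a value on each null array and 106 to 111 on each wildtype array. Gja1, the deleted gene, had ratios of -0.29, 0.25, 0.12 and 0.22 in null pools 1 to 4, against 1.04, 1.31, 0.99 and 0.79 in wildtype pools 1 to 4, with no overlap (exact two-sided permutation p = 0.0286, the smallest that 70 assignments allow). Of the heart muscle markers Tnnc1, Myl7 and Pln were measured, with array medians of 0.75 to 1.16 in null pools and 1.08 to 1.19 in wildtype pools, above 0 in every pool. The depth of a spot's signal is not known from ratios, and the number of arrays limits the precision.

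Ribosomal protein genes stood slightly above the median of the arrays. Averaged over all arrays, 51 of the 61 members had a centred ratio above 0, with a median log2 ratio of 0.14 (1.10-fold), and both subunits lay alike, at 0.14 for small and 0.15 for large subunit genes. On the deposited scale the member medians averaged -0.08 ± 0.06 in null pools and 0.06 ± 0.05 in wildtype pools (SD, n = 4 each), on either side of 0. The authors' scaling is not given, so 0 on that scale need not be an equal signal of heart and reference. Between quartiles the centred values of the members ran from 0.05 to 0.23. The ratio compares heart with reference for 1 gene and says nothing of which ribosomal protein has more transcripts. In RNA of whole hearts, fewer cells of a type and less RNA per cell cannot be told apart.

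The members with the highest ratios were Rpl15, Rps4x, Rpl35a and Rpsa. Rpl15, a core protein of the large subunit, averaged 0.41 ± 0.15 in null pools and 0.37 ± 0.22 in wildtype pools (SD, n = 4 each). Rps4x, the X-linked gene of a small subunit protein, read 0.41, 0.43, 0.33 and 0.49 in null pools 1 to 4, against 0.21, 0.41, 0.55 and 0.28 in wildtype pools 1 to 4. Rps4x varied least of these 4 genes, with an SD of 0.11 over all arrays. The mean ratios of Rpl15, Rps4x, Rpl35a and Rpsa, 0.39, 0.39, 0.36 and 0.34, differed by less than their SDs of 0.11 to 0.18.

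At the other end stood Rpl39l and Rpl10l, paralogs of Rpl39 and Rpl10 that mouse germ cells of the testis express. Rpl39l, a short large subunit protein, read -0.87, -1.53 and -0.52 in null pools 2 to 4, with no value in pool 1, against -1.59, -0.60, -0.57 and -0.93 in wildtype pools 1 to 4. Rpl10l read -0.28, -0.51, -0.79 and 0.03 in null pools 1 to 4, against -0.68, -0.11, -0.13 and -0.21 in wildtype pools 1 to 4. The reference contained gonads, and their part in these ratios was not tested. Both genes lay below the array median on all arrays with a value except null replicate 4 for Rpl10l, and the genotypes overlapped. Rps15, a small subunit protein near the decoding site, and Rpl13a followed with mean ratios of -0.16 and -0.12 over all arrays. Rpl13a, a large subunit protein that also acts in translational silencing in human monocytes, read 0.28, 0.04, -0.27 and -0.13 in null pools 1 to 4, against -0.43, -0.01, 0.23 and -0.66 in wildtype pools 1 to 4. Besides Rpl39l (SD 0.45 over all arrays), the members with the largest spread were Rpl13 (0.39), Rpl6 (0.32) and Rpl13a (0.32), and in none of these did the genotypes separate. Rpl13 read 0.28, -0.33, -0.78 and 0.29 in null pools 1 to 4, against -0.37, 0.01, 0.05 and 0.27 in wildtype pools 1 to 4. Rps4l, the gene listed as a pseudogene, read 0.45, 0.39, -0.20 and 0.44 in null pools 1 to 4, against 0.25, 0.57 and 0.16 in wildtype pools 2 to 4, with no value in pool 1. For Rpl13 and Rps4l alike, null replicate 3 was the lowest pool.

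After centring, ribosomal protein genes moved together from pool to pool. The median over the members was 0.22, 0.18, -0.04 and 0.25 in null pools 1 to 4, against -0.10, 0.17, 0.38 and 0.11 in wildtype pools 1 to 4. Null replicate 3 and wildtype replicate 1 were low, wildtype replicate 3 was high, and the genotypes overlapped. Their means were 0.15 ± 0.13 in null pools and 0.14 ± 0.20 in wildtype pools (SD, n = 4 each), a difference of 0.011 that is far smaller than the spread between pools of 1 genotype. Many genes shared the order of the pools. Among the 59 members with values on all arrays, null replicate 3 was the lowest null pool for 45 and null replicate 4 the highest for 33, while wildtype replicate 1 was the lowest wildtype pool for 52 and wildtype replicate 3 the highest for 51. Members above the array median numbered 50 of 60, 54 of 61, 27 of 61 and 55 of 61 in null pools 1 to 4, against 14 of 60, 55 of 61, 58 of 61 and 45 of 61 in wildtype pools 1 to 4.

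**Figure D1:**
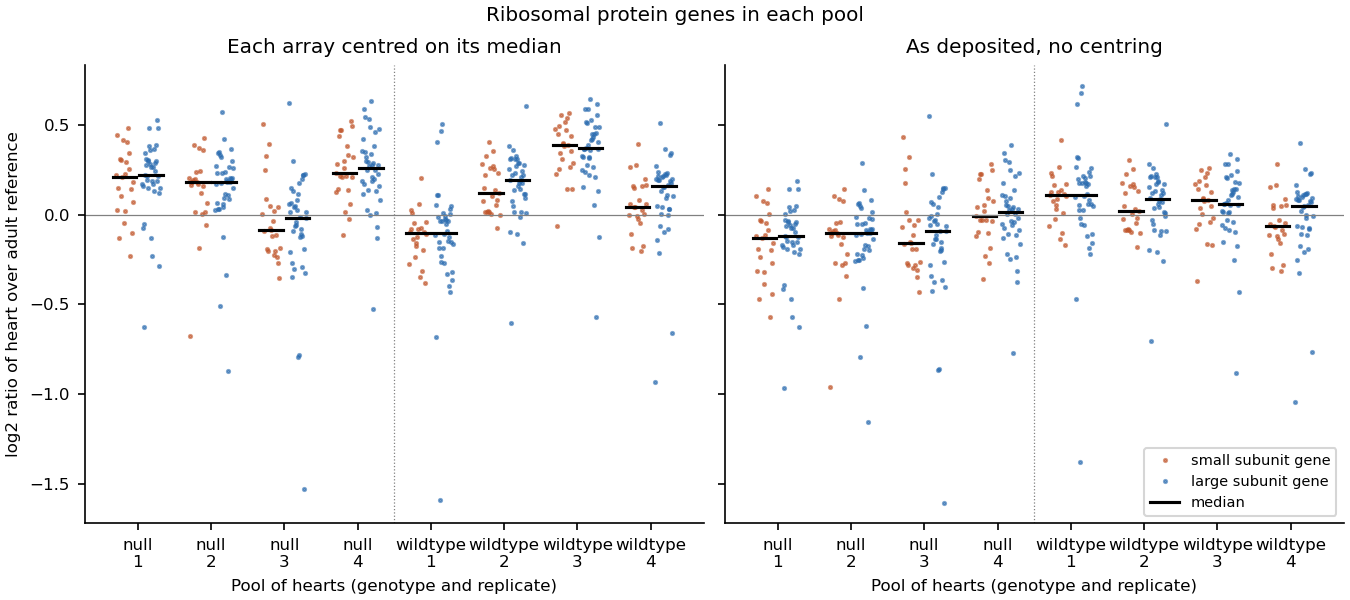
Log2 ratio of heart over adult reference (vertical axis) of each ribosomal protein gene in each pool, with arrays centred on their medians at left and as deposited at right. Points are genes, orange for the small and blue for the large subunit, and black lines are medians. At left null replicate 3 and wildtype replicate 1 are low and wildtype replicate 3 is high, whereas at right 3 of the 4 null pools have medians of -0.12 to -0.10, null replicate 4 has 0.0042 and the wildtype pools have -0.0029 to 0.11.

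On centred arrays, a shift common to all members between pools of a genotype accounted for 53.4% of the members' sum of squares around gene means. On the deposited scale this share was 12.3%, below the 27.4% of all features. A shift common to the members between genotypes took 0.0218% on centred arrays and 22.5% on the deposited scale, where it took 12.5% of all features. Gene by gene differences between genotypes took 7.47% on centred arrays and the remainder was 39.1%. The common pool shift on centred arrays was 60.7% for 22 small subunit genes and 50.3% for 37 large subunit genes. Over all 8238 features with complete values it was 0.826%, a share that centring holds near 0. The spread left within a gene after these shifts had an SD of 0.14, against 0.23 over all features. Of the 61 members 31 are averages of several probes, and the part of this averaging in the lower SD was not tested.

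This pattern depended on the centring of the arrays. On the deposited scale, without centring, the medians of the members were -0.12, -0.10, -0.11 and 0.0042 in null pools 1 to 4, against 0.11, 0.07, 0.08 and -0.0029 in wildtype pools 1 to 4. Ribosomal protein genes thus ranged over 0.23 between arrays on the deposited scale and over 0.49 after centring. The deposited medians of all spots were -0.34, -0.28, -0.08 and -0.24 on null arrays 1 to 4, against 0.21, -0.10, -0.31 and -0.11 on wildtype arrays 1 to 4, so that the arrays with the highest spot medians, wildtype replicate 1 and null replicate 3, were those with the lowest centred ribosomal protein medians. Wildtype replicate 1 also had the fewest spots with a value and the highest medians of endothelial markers (0.87, against 0.38 to 0.50 in the other wildtype pools and 0.56 to 0.70 in null pools; 6 of 8 measured, 5 of them in wildtype replicates 1 and 2) and of the neutrophil markers S100a8, S100a9 and Mpo (0.16, against -0.47 to -0.03 and -0.74 to -0.35; 3 of 5 measured). The part of these differences in the ribosomal protein values was not tested.

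Values of cell type markers also differed between genotypes, beside 59.1% of all features that were lower in null pools. The 3 of 4 lung epithelium markers measured had lower values in null pools. Their array medians were -3.33 to -2.93 in null pools and -2.73 to -2.003 in wildtype pools, with no overlap. Each marker had an unadjusted p under 0.05 in limma, beside 6.13% of all features lower, and no overlap, beside 5.54% lower. All 7 of 10 erythroid markers measured had higher values, with array medians of -0.0065 to 0.34 in null pools and -0.33 to 0.05 in wildtype pools. All 5 of 8 fibroblast markers measured had higher values, by a median of 0.12, but their array medians, 0.22 to 0.42 in null pools and 0.20 to 0.51 in wildtype pools, overlapped. All 3 heart muscle markers measured had lower values in null pools, with differences from -0.21 to only -0.0015 and a median of -0.19. The 3 neutrophil markers were also lower, with a median difference of -0.23. Of 6 endothelial markers measured 5 had higher values, with a median of 0.21. Of 4 liver markers measured 3 were lower, macrophage markers split into 2 higher and 2 lower, and the 1 smooth muscle marker was lower. No marker passed an adjusted p of 0.05 in limma. The part of these markers in the values of the ribosomal protein genes, and of the gene lists set beside them, was not tested.

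Small and large subunit genes shifted alike. Small subunit medians were 0.21, 0.18, -0.08 and 0.23 in null pools 1 to 4, against -0.10, 0.12, 0.39 and 0.05 in wildtype pools 1 to 4. Large subunit medians were 0.22, 0.18, -0.02 and 0.26 in null pools 1 to 4, against -0.10, 0.19, 0.37 and 0.16 in wildtype pools 1 to 4. The large subunit median exceeded the small by 0.0080, 0.0026, 0.067 and 0.026 in null pools 1 to 4, against 0.00093, 0.069, -0.021 and 0.11 in wildtype pools 1 to 4. That gap averaged 0.026 ± 0.029 in null pools and 0.041 ± 0.062 in wildtype pools (SD, n = 4 each), and the genotypes overlapped. Wildtype replicate 4 had the widest gap and wildtype replicate 3 the only one in favour of the small subunit.

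The main comparison asked whether the transcript level of any ribosomal protein gene differs when connexin43 is missing. No gene did so in limma with Benjamini-Hochberg adjustment over all 11804 features: 0 of 61 members and 0% of all features passed an adjusted p of 0.05 in either direction, and the smallest adjusted p of a member was 0.594. The deleted gene Gja1 did not pass either, with a difference of -0.95 (SE 0.15, adjusted p = 0.340 in limma). A member that differs can thus also go without a call. At an unadjusted p under 0.05, 0 members were counted as higher and 0 as lower, beside 2.1% of all features as higher and 6.13% as lower. No member had null and wildtype values without overlap, beside 2% of all features higher and 5.54% lower. Of the members 33 had higher and 28 lower values in null pools. The lower values made up 45.9% of the members and 59.1% of all features. The median log2 difference, null minus wildtype, was 0.0066 over the members, 0.012 for small and 0.0036 for large subunit genes, and -0.04 over all features.

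All 61 intervals of 95% around the differences included 0, and 41 members differed by less than 0.1. The largest difference was 1.18-fold. The median half-width of an interval was 0.30 with 4 pools per genotype. Counts of higher and lower members rested on single pools: 14 of 60 members were lower without null replicate 3, 48 of 61 without wildtype replicate 1 and 13 of 60 without wildtype replicate 3. Without centring 56 of 61 members (beside 85% of all features) had lower values in null pools, with a median of -0.15, against -0.18 over all features. The split of 28 lower and 33 higher was 37 and 24 with arrays scaled to equal spread, and 20 and 41 with differences adjusted for their drift with the mean ratio of a feature.

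**Figure D2:**
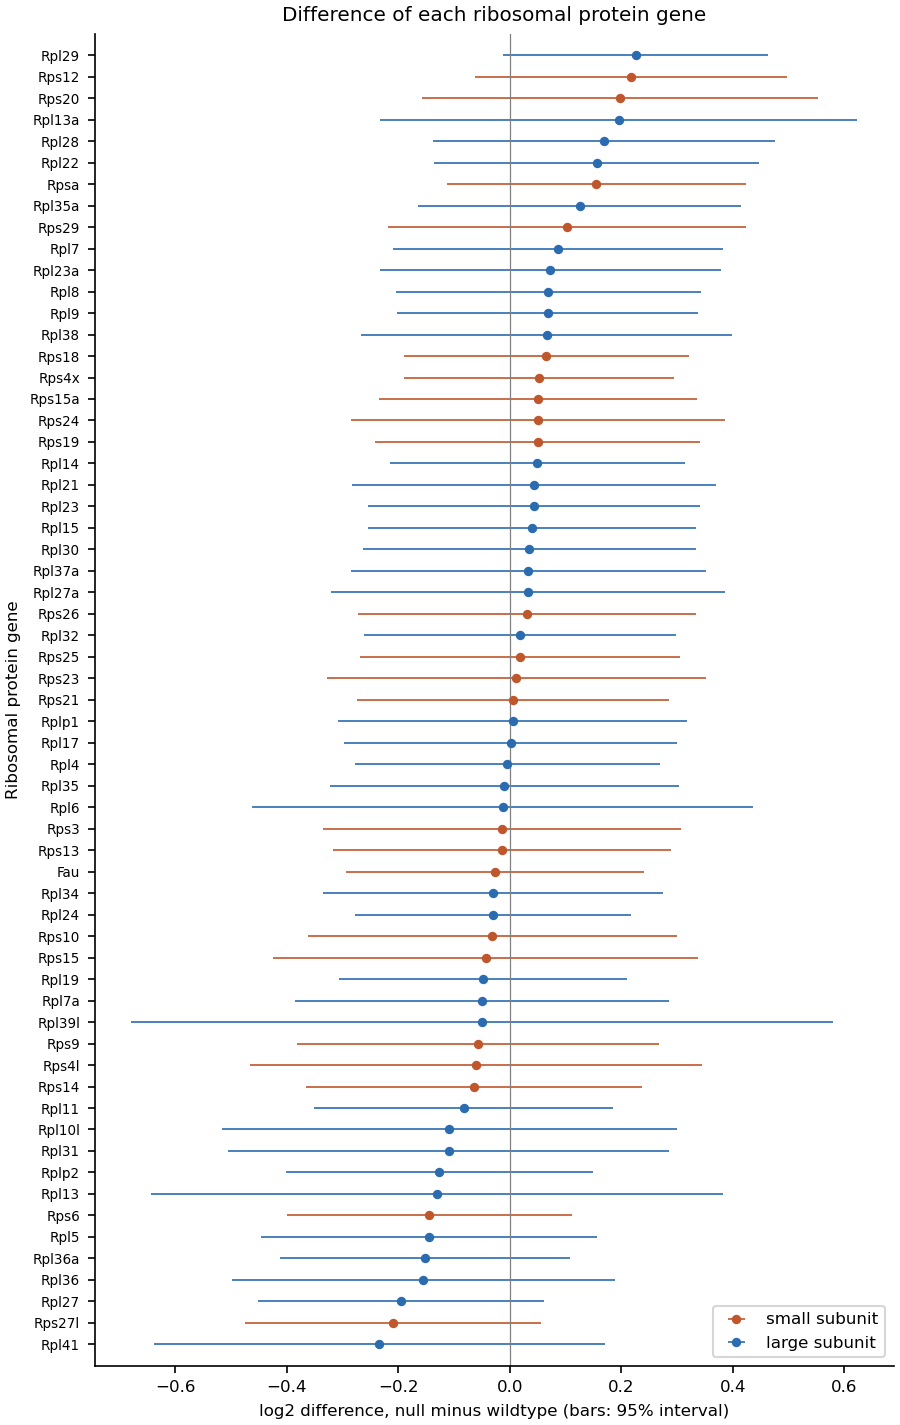
Log2 difference, null minus wildtype (horizontal axis), of the 61 ribosomal protein genes, sorted by size, with arrays centred on their medians. Points are differences, orange for the small and blue for the large subunit, and bars are 95% intervals of the limma fit, all of which include 0.

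Genes with the smallest p-values among those with higher values were Rpl29, Rps12, Rpsa, Rps20, Rpl28 and Rpl22. Rpl29 (chr9:106428889-106431568 in GRCm38.p6, as for the genes below), whose product is a large subunit protein also known to bind heparin, read 0.24, 0.34, 0.20 and 0.46 in null pools 1 to 4, against -0.04, 0.05, 0.22 and 0.11 in wildtype pools 1 to 4. Only null replicate 3 lay below a wildtype pool, and the difference was 0.23 (SE 0.11, adjusted p = 0.594, limma over all features). Rps12 (chr10:23785183-23787383), a protein of the small subunit's beak, read 0.48, 0.24, 0.40 and 0.38 in null pools 1 to 4, against -0.10, 0.27, 0.40 and 0.06 in wildtype pools 1 to 4. Its difference of 0.22 (SE 0.13, adjusted p = 0.642 in limma) was 0.13 without wildtype replicate 1.

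Rpsa encodes a small subunit protein that was first described as a laminin receptor. It read 0.34, 0.37, 0.51 and 0.47 in null pools 1 to 4, against 0.02, 0.33, 0.51 and 0.20 in wildtype pools 1 to 4. Wildtype replicate 1 was the lowest pool, and the difference of 0.16 (SE 0.12) was 0.08 without it, and 0.24 without wildtype replicate 3. Its 5 probes gave differences of 0.11 to 0.25, with the same sign on each, but 4 of them share 1 accession and are repeats of 1 clone.

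Rps20, a small subunit protein, differed by 0.20 (SE 0.16), and by 0.08 without null replicate 4, which at 0.47 was its highest pool. Its difference was 0.11 without wildtype replicate 1 and 0.30 without null replicate 3. Rpl28, a large subunit protein that yeast lacks, read 0.30, 0.27, 0.03 and 0.49 in null pools 1 to 4, against -0.19, 0.19, 0.32 and 0.09 in wildtype pools 1 to 4. The difference of Rpl28 was 0.17 (SE 0.14), 0.07 without wildtype replicate 1 and 0.10 without null replicate 4. Rpl22, a large subunit protein that T cell development in mice requires, differed by 0.16 (SE 0.13), carried by null replicate 3 at 0.62 and 0.05 without that pool, or 0.09 without wildtype replicate 1. Without centring, these 6 genes had differences between -0.0031 for Rpsa and 0.07 for Rpl29.

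Genes with the smallest p-values among those with lower values were Rps27l, Rpl27, Rpl36a, Rpl41, Rps6 and Rpl5. Rps27l (chr9:66944624-66949522) encodes a paralog of the small subunit protein Rps27, and its human counterpart is induced by p53. It read -0.13, -0.18, -0.35 and -0.12 in null pools 1 to 4, against -0.20, 0.02, 0.25 and -0.02 in wildtype pools 1 to 4. The groups overlapped at wildtype replicate 1, and the difference was -0.21 (SE 0.12, adjusted p = 0.639 in limma), or -0.13 without wildtype replicate 3.

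Rpl27, a large subunit protein, read 0.30, 0.18, -0.02 and 0.28 in null pools 1 to 4, against 0.47, 0.31, 0.52 and 0.22 in wildtype pools 1 to 4. Its difference of -0.20 (SE 0.12), or -0.13 without null replicate 3, joined probes that did not give like values, with 0.033 on 1 and -0.42 on the other. Rpl36a, an X-linked gene of the large subunit, differed by -0.15 (SE 0.12), and by -0.08 without wildtype replicate 2, at 0.61 its highest pool. Rpl41 encodes one of the shortest known proteins. It read -0.63, 0.10, -0.21 and 0.12 in null pools 1 to 4, against -0.27, 0.22, 0.32 and 0.03 in wildtype pools 1 to 4. Null replicate 1 was its lowest pool, and the difference of -0.23 (SE 0.18) was -0.08 without it and -0.15 without wildtype replicate 3.

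Rps6, the small subunit protein that S6 kinases phosphorylate downstream of mTOR, read 0.07, 0.12, -0.19 and 0.02 in null pools 1 to 4, against 0.01, 0.28, 0.27 and 0.04 in wildtype pools 1 to 4. Its difference was -0.14 (SE 0.12), or -0.08 without null replicate 3. The 3 probes of Rps6 gave -0.02, -0.05 and -0.36, and the last of these carried most of the difference. Rpl5, which binds Mdm2 together with Rpl11 when ribosome assembly fails, read 0.53, 0.20, 0.12 and 0.14 in null pools 1 to 4, against 0.51, 0.22, 0.62 and 0.22 in wildtype pools 1 to 4. The difference was -0.14 (SE 0.14), -0.07 without wildtype replicate 3 and -0.24 without null replicate 1. Rpl11 itself differed by -0.08 (SE 0.12). Without centring, the 6 genes had differences of -0.39 for Rpl41 to -0.30 for Rps6, and 5 of all members, among them Rps27l at -0.37 (SE 0.11, adjusted p = 0.416), had an unadjusted p under 0.05, all with lower values, beside 11.6% of all features.

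Since the members shifted together between pools on centred arrays, each member was also set against the ribosomal protein median of its own array. A value relative to that median does not depend on the centring and shows unequal change within an array. Rps27l then read -0.35, -0.36, -0.32 and -0.36 in null pools 1 to 4, against -0.10, -0.15, -0.13 and -0.13 in wildtype pools 1 to 4. The genotypes did not overlap, and the pools of each lay within 0.06 of one another. The relative difference of Rps27l was -0.22 (SE 0.11), with an adjusted p of 0.979 in limma over all features, so that it did not pass. limma's SE is drawn toward the spread of all features and exceeds the SDs of 0.02 and 0.02 in null and wildtype pools. Rps27l had 1 probe.

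Other members whose genotypes did not overlap on this scale were Rpl28, with higher values in null pools, and Rpl27 and Rplp2, with lower ones. That is 1 of 61 members higher, beside 1% of all features, and 3 of 61 lower, beside 2.92%. Rpl28 read 0.08, 0.09, 0.06 and 0.24 in null pools 1 to 4, against -0.08, 0.01, -0.07 and -0.02 in wildtype pools 1 to 4. Rplp2, a protein of the acidic stalk that recruits elongation factors, read -0.07, 0.02, -0.09 and 0.02 in null pools 1 to 4, against 0.21, 0.15, 0.05 and 0.02 in wildtype pools 1 to 4. The groups of Rplp2 stood nearly in contact, at 0.0227 on null replicate 4 and 0.0229 on wildtype replicate 4, and neither gene passed (adjusted p = 0.979 for each in limma).

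**Figure D3:**
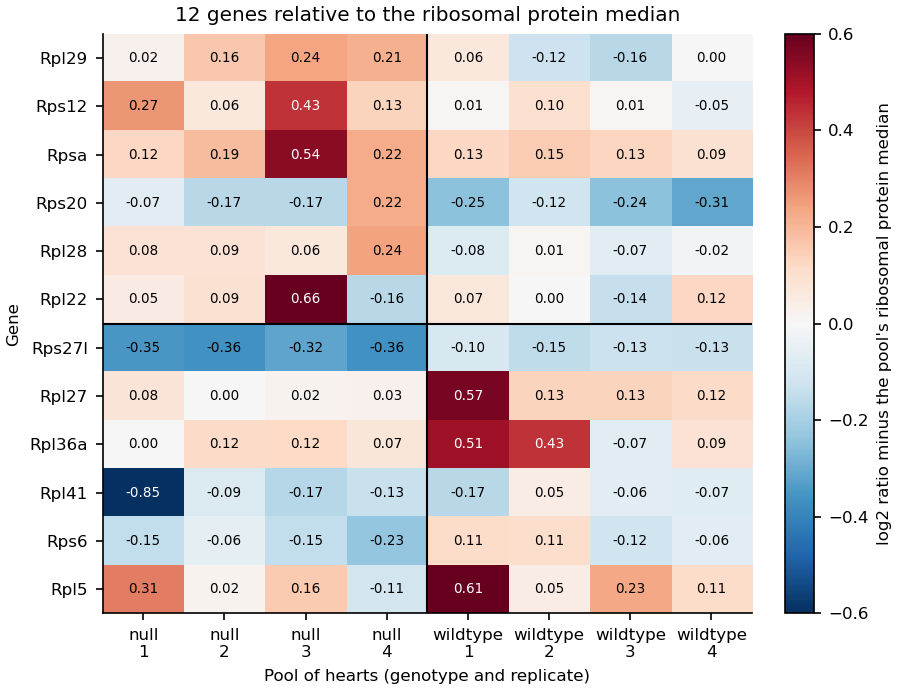
Log2 ratio minus the ribosomal protein median of the same array (colour and printed value) for the 6 genes with the smallest p among higher values, above the line, and the 6 among lower values, below it, in each pool (columns). Rps27l is between -0.36 and -0.32 in all null pools and between -0.15 and -0.10 in all wildtype pools, whereas single pools stand out for Rpl22, Rpsa, Rpl27 and Rpl41.

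Probes of 1 gene were a further gauge of error. Of the 61 members 31 had several probes in use, and in 15 of them the probes gave differences of opposite sign. The median gap between the highest and the lowest probe of a gene was 0.10, as large as most differences between genotypes. Besides Rpl27, the widest gaps with opposite signs were those of Rps15 (-0.19 and 0.11), Fau (-0.14 to 0.15 over 3 probes) and Rpl38 (-0.06 and 0.19). Fau encodes a small subunit protein fused to a ubiquitin-like protein, and its gene-level ratios averaged -0.017 ± 0.15 in null pools and 0.0090 ± 0.16 in wildtype pools (SD, n = 4 each). Rpl38 encodes a large subunit protein that mouse embryos need for the translation of Hox messenger RNAs. It read 0.19, 0.18, -0.11 and 0.22 in null pools 1 to 4, against -0.16, -0.16, 0.45 and 0.10 in wildtype pools 1 to 4. In 15 of the 31 genes at least 2 probes share 1 accession, so that some probes are repeats of 1 clone.

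Genes around the ribosomal proteins are set beside them as description. Of 22 other genes of the translation machinery with TOP messenger RNAs 16 were measured. Of these 12 had higher and 4 lower values in null pools, with a median difference of 0.07, whereas 59.1% of all features were lower. The median was -0.09 without centring. None of the 16 had an unadjusted p under 0.05, beside 2.1% of all features higher and 6.13% lower. Their medians were 0.17, 0.20, 0.14 and 0.32 in null pools 1 to 4, against -0.0076, 0.17, 0.20 and 0.24 in wildtype pools 1 to 4. Wildtype replicate 1 was low here as well, while null replicate 3 was less so and wildtype replicate 3 did not stand out. The common pool shift took 32.4% of their sum of squares on centred arrays and 33.2% on the deposited scale. Pabpc1, which encodes the poly(A) binding protein, had a difference of 0.21 (SE 0.13), Eif4b, whose product stimulates the helicase of initiation, 0.17 (SE 0.13), and Eif4a2, which encodes such a helicase, 0.16 (SE 0.11). Without wildtype replicate 1 the median of the list was -0.015.

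Mitochondrial ribosomal proteins serve the separate ribosomes of mitochondria. Their common pool shift took 3.83% of the sum of squares on centred arrays and 27.2% on the deposited scale, against 53.4% and 12.3% for the cytoplasmic ones, so that the scale sets which list has the larger share. Wildtype replicate 3 was the highest wildtype pool and null replicate 4 the highest null pool in both lists after centring. Of 56 measured genes 41 had lower values in null pools (73.2%, beside 59.1% of all features), with a median of -0.08. Mrpl2, Mrps16 and Mrps10 had differences of -0.43 (SE 0.13), -0.40 (SE 0.14) and -0.39 (SE 0.13), each with an adjusted p of 0.553 in limma. At an unadjusted p under 0.05, 3 of 56 were lower and 0 higher, near the 6.13% and 2.1% of all features. Groups did not overlap for 5 of 56, all lower, beside 5.54% of all features.

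Genes of ribosome assembly and RNA polymerase I, which act upstream in the nucleolus, had a median difference of -0.08 over 34 measured genes of 47 listed, 24 of them lower (70.6%, beside 59.1% of all features). Their common pool shift took 3.38% of the sum of squares on centred arrays and 39.2% on the deposited scale. Groups did not overlap for 3 of the 34, all lower, beside 5.54% of all features. Nmd3, the export adaptor of the large subunit, read 0.0041, -0.04, 0.06 and 0.01 in null pools 1 to 4, against 0.87, 0.14, 0.52 and 0.48 in wildtype pools 1 to 4. All null pools of Nmd3 lay below all wildtype pools, by -0.49 on average (SE 0.14, adjusted p = 0.533 in limma). Bop1, a factor of large subunit ribosomal RNA processing, differed by -0.60 (SE 0.16, adjusted p = 0.519), and Gnl3, which encodes nucleostemin, by -0.51 (SE 0.19, adjusted p = 0.567). Gnl3 read 0.08, 0.07, 0.12 and 0.22 in null pools 1 to 4, against 1.28, 0.48, 0.26 and 0.48 in wildtype pools 1 to 4. Wildtype replicate 1 thus stood far above the other wildtype pools of Gnl3. Of 14 listed genes of growth control 6 were measured, 4 with higher and 2 with lower values in null pools and a median difference of 0.0077. All but Myc differed by -0.014 to 0.026. The transcription factor gene Myc, a driver of ribosome synthesis, read 0.26, 0.05, 0.18 and 0.12 in null pools 1 to 4, against 0.65, 0.30, 0.25 and 0.57 in wildtype pools 1 to 4. Its difference was -0.29 (SE 0.12, adjusted p = 0.588), and the groups overlapped by null replicate 1 and wildtype replicate 3.

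**Figure D4:**
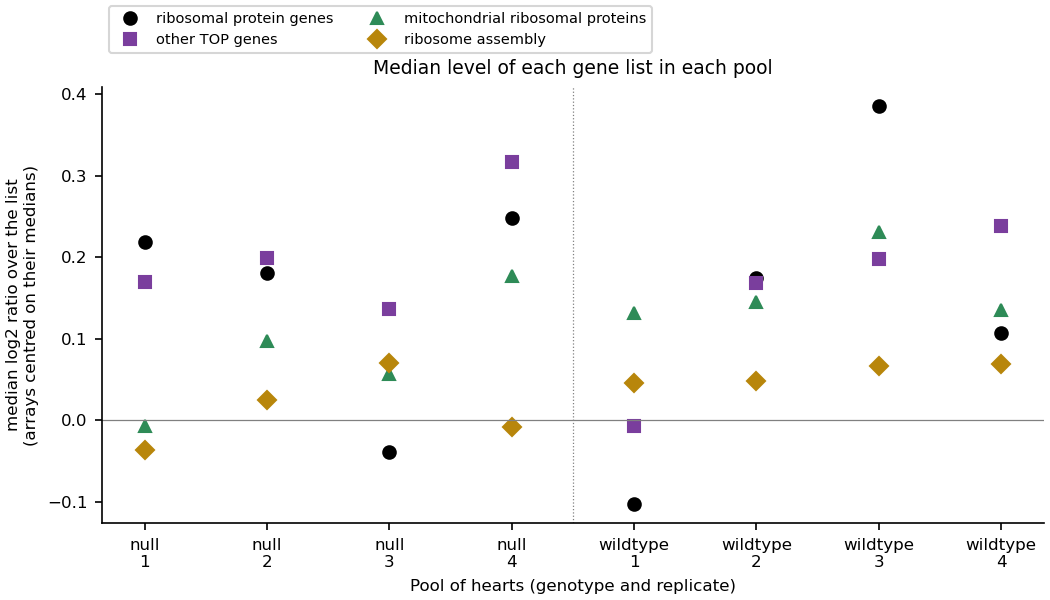
Median log2 ratio over each gene list (vertical axis) in each pool (horizontal axis), with arrays centred on their medians. Ribosomal protein genes (circles) range from -0.10 to 0.38, other TOP genes (squares) from -0.0076 to 0.32, mitochondrial ribosomal proteins (triangles) from -0.0067 to 0.23 and ribosome assembly genes (diamonds) from -0.04 to 0.07.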

How the data were processed

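The deposited values are log2 ratios of both dyes per spot of a 2-colour cDNA array. The base was taken from the values: differences between spots within blocks of 598 rows, 31304440 in all, were compared with logs of small whole-number ratios (terms to 120, tolerance 1.5e-09), which gave 8347 matches for base 2, 269 for base e and 863 for base 10. What scanner, background correction, spot filter and scaling the authors used is not given in the sources used here. The direction, heart over reference, is not stated: the median of Tnnc1, Myl7 and Pln lay above that of 7 liver and lung genes on 8 of 8 arrays. Symbols come from the platform annotation, which can be old; 60 members matched GRCm38.p6 by gene number and 1 by symbol.

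The median of each array was subtracted. A probe was kept if 3 or more arrays per genotype gave it a value, and kept probes that share a symbol were combined in an additive model of probes and arrays. Null minus wildtype was fitted over all 11804 features with limma 3.58.1 (lmFit and eBayes) under R 4.3.3, with Benjamini-Hochberg adjustment and a threshold of 0.05; scripts were tested on simulated data. Sums of squares were split over genes with values on all arrays. Replicates are the separately labelled pools, and a p-value reflects how pools vary. The labels name no batch. No columns were identical between arrays.

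Members, lists and tests were chosen with earlier results of these data known. Members are named by a rule: the 6 smallest p-values in each direction, groups without overlap, the 4 highest, 4 lowest and 4 most variable ratios, up to 4 genes whose probes disagree in sign, and paralogs; Rpl11 and Rplp2 were added after their values were seen. Other lists give up to 3 genes by p-value. Alternatives were no centring, quantile normalization, equal spread, centring within blocks or over complete spots, other limits on missing values, other probe averages, robust eBayes, array weights, a trend correction, each array left out and the replicate number as a block. Values relative to the ribosomal protein median were added after seeing the data. Sequences and figures were handled in Python 3.11.15 with matplotlib 3.10.9, pandas 2.3.3 and numpy 2.4.6.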

Additional observations from a re-analysis of the deposited data

Results flagged for a closer look

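In groups of 4 pools, a pool was marked when its gap to the nearest other pool exceeded Dixon's 95% critical value as a share of the group's range. Of 54 groups examined (named members and member medians) 4 were marked. Chance alone marks about 1 in 20 of independent groups. These groups share the same pools, and some members were named for their spread, so the count cannot be set against that rate. Rps15 stood at -0.38 in wildtype replicate 1, against -0.08 to -0.05 in the other wildtype pools. Null replicate 3 was marked for Rpl38 at -0.11, against 0.18 to 0.22 in the other null pools, and for Rps4l at -0.20, against 0.39 to 0.45. It was also marked for the small subunit median at -0.083, against 0.18 to 0.23. Both pools are those with low medians over all ribosomal protein genes after centring.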

How the results depend on the processing

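No member was called in either direction in any of the 21 settings, so these counts stayed at 0. The count of members with lower values in null pools, 28, was 56 without centring, and ranged from 13 to 48 when single arrays were left out. It was 20 to 37 in the other settings. The median difference of the members, 0.0066, was -0.15 without centring and -0.07 to 0.10 without single arrays. The median difference, null minus wildtype, of large subunit genes minus that of small subunit genes was -0.0084. It stayed between -0.031 and 0.0080 in all settings. Among the 12 genes named by p-value, the difference turned to -0.0031 for Rpsa and -0.0022 for Rpl22 without centring and to 0.033 for Rpl27 with the probe with the fewest missing values. The replicate number as a block left the median at 0.0066 and the count at 28. Same-numbered pools did not deviate together (correlations of -0.25 to -0.0090 over 8238 features). The labels link these pools by number only, and whether they shared a batch cannot be told from these correlations. The cause of these changes was not tested. With 4 pools per genotype the median half-width of an interval was 0.30, and spot intensities were not used here.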
